A study of Mus musculus with 2 samples.

Results

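Chromosomes 16 and 18 of mouse embryonic fibroblasts held 710 regions of histone H3 lysine 4 trimethylation (H3K4me3), 367 on chromosome 16 and 343 on chromosome 18, of 12159 on the 20 chromosomes counted. H3K4me3 had been mapped by chromatin immunoprecipitation and sequencing in 2 fibroblast lines, WT (Lsh+/+) and homozygous mutant for Lsh (Lsh-/-), with 1 library from each. Both lines were grown in the same serum-containing medium, and chromatin from 20000000 cells had been cut with MNase, mostly to single nucleosomes, before it was precipitated. The labels give neither the number of embryos behind each line nor the part of the gene that was removed, so a difference between these libraries may belong to the lines as well as to the genotype, and the 2 cannot be told apart. A region was drawn in each library by joining 200 bp windows of at least 6 reads across gaps of up to 1 kb and was kept when its windows summed to at least 20 reads, and overlapping regions of the libraries were then merged. The members were therefore chosen by their window read counts in both libraries. The chromosomes themselves were chosen because their reads outside the regions differed most between the libraries. With 1 library in each group no test of the genotype was possible, and the 95% intervals given with ratios cover counting error only. The libraries had been amplified by 20 cycles of PCR without molecular identifiers, so reads are not independent molecules.

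H3K4me3 is deposited on nucleosomes beside active or poised transcription start sites, most of all where the promoter is rich in unmethylated CpG dinucleotides. CXXC-domain proteins of the methyltransferase complexes bind such DNA, while DNA methylation and H3K4me3 tend to exclude each other. Lsh, encoded by Hells, is an SNF2-family chromatin remodelling ATPase that cells need for normal DNA methylation, above all at repeats and at many silenced promoters.

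Promoter sequences show the DNA under the regions of chromosome 16 that are described most closely. The following 6 were chosen because their regions carry the lower calls tied to a gene (Tmem45a and Col8a1), 2 large higher calls (Cadm2 and Ncam2), and 2 of the strongest or widest regions of both libraries (Phldb2 and Adamts1). Each runs 5′ to 3′ on the strand of the gene, from 250 bases before to 50 bases after the annotated start, and was taken from RefSeq on assembly GRCm38.p6. Capitals mark the CpG dinucleotides on that strand. The coordinates of these sequences are in GRCm38.p6, at chr16:56886114-56886413 (minus strand) for Tmem45a, chr16:57754688-57754987 (minus strand) for Col8a1, chr16:67620859-67621158 (minus strand) for Cadm2, chr16:81200447-81200746 (plus strand) for Ncam2, chr16:45844329-45844628 (minus strand) for Phldb2 and chr16:85803064-85803363 (minus strand) for Adamts1. All regions further on are in build mm8, the build of the deposited files, and the builds are not interchangeable.
Tmem45a: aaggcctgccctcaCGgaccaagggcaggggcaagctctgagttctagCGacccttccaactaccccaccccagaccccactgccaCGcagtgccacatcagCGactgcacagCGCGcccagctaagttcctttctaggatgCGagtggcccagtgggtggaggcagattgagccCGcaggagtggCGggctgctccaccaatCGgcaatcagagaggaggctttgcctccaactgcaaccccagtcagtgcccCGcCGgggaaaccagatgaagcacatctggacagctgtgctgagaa
Col8a1: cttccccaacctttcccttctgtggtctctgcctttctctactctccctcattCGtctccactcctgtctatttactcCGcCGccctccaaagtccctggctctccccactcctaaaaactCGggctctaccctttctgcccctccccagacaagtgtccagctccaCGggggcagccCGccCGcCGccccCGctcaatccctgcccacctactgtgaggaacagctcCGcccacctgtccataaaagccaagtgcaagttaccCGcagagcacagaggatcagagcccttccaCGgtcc
Cadm2: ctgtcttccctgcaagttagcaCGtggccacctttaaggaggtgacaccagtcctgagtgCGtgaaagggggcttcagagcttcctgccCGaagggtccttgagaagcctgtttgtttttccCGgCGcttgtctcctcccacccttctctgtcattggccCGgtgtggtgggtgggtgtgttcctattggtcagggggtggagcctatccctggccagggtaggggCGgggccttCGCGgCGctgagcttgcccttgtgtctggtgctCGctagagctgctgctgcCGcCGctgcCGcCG
Ncam2: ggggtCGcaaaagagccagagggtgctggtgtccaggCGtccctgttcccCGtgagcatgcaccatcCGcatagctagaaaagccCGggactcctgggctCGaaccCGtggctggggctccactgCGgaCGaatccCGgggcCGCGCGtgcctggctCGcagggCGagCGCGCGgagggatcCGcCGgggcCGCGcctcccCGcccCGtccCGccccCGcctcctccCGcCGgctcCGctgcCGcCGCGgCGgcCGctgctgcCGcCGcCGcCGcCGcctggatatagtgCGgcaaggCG
Phldb2: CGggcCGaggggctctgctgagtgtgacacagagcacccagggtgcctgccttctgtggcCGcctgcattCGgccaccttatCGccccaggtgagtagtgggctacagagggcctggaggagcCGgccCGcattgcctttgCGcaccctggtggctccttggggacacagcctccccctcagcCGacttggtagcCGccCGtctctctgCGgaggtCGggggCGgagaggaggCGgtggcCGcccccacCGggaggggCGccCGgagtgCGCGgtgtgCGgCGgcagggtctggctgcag
Adamts1: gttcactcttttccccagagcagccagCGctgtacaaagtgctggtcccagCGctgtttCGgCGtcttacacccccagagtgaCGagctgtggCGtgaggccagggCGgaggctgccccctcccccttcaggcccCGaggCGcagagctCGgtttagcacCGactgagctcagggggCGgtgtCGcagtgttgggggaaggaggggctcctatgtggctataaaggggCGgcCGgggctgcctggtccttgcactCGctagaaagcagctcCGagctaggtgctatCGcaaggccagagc
The Ncam2 promoter held 41 CpG dinucleotides in its 300 bases, the Phldb2 promoter 23, the Adamts1 promoter 18, the Cadm2 promoter 15, and the Tmem45a and Col8a1 promoters 12 each. Over the 1078 promoter sequences of chromosome 16 in the RefSeq table the median was 6. Among the 379 promoters of genes tied to a region the median was 23, against 4 among the other 699. At least 10 CpG dinucleotides were found in 88.9% of the promoters of genes tied to a region and in 42.0% of all 1078. Only 584 of the 1078 were placed by a read, so the other 699 include promoters of unknown position. The promoters of both called losses were below this median of 23, and so were those of Cadm2 and Adamts1.

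The window lists held 4070062 reads for WT and 4550240 for Lsh-/-, of which the 710 regions took 65726 and 99651. Regions of all chromosomes took a larger share of the Lsh-/- library throughout: 39.0% against 29.7% of window reads on the other 18 chromosomes. The region at Hells on chromosome 19 held 178 WT and 243 Lsh-/- reads. Since H3K4me3 at a promoter does not report on a deletion elsewhere in the gene, it does not check the genotype labels. Of the marker promoters in the RefSeq table, 5 of 7 fibroblast markers lay in a region, against 1 of 5 epithelial, 1 of 3 neuronal (Syt1), and 0 of 2 each of blood, endothelial and pluripotent markers. No read matched the promoters of Pdgfra, Krt8, Krt5, Cldn4, Ptprc, Cldn5, Rbfox3, Tubb3 and Pou5f1. Whether these lay in a region is therefore unknown, and the comparison of cell types is limited by it. S100a4, Epcam, Cd3e, Tek and Nanog were placed and lay outside the regions. The fibroblast lines differed at some markers away from chromosomes 16 and 18. Among the fibroblast markers the collagen chain Col1a2 had 135 WT and 33 Lsh-/- reads, while the collagen chain Col3a1 had 80 and 282, Vim, which encodes vimentin, 406 and 666, Twist1 149 and 181 and Twist2 138 and 212. Krt18, an epithelial keratin, had 5 and 92, and Syt1 had 70 and 84. The part of such differences between the lines in the results on chromosomes 16 and 18 was not tested.

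Reads outside the regions, which come from chromatin with little H3K4me3, were fewer on chromosome 16 and more on chromosome 18 in the Lsh-/- library. Chromosome 16 had 103835 outside reads in WT and 74337 in Lsh-/-, and chromosome 18 had 79317 and 109298. Relative to the outside reads of all chromosomes, this was 0.737-fold on chromosome 16 (0.730 to 0.744, log2 -0.44) and 1.42-fold on chromosome 18 (1.41 to 1.43, log2 0.50). These were the lowest and the highest of the 20 values, and the other 18 chromosomes lay between -0.26 and 0.27. The shift ran along the whole of both chromosomes. All 20 bins of 5 Mb on chromosome 16 were below 0, from -0.62 to -0.29, and all 18 bins on chromosome 18 with more than 2000 outside reads were above 0, from 0.35 to 0.69. Of the 488 such bins of the other chromosomes 254 were above 0, and they ranged from -0.48 to 0.74. All 31 bins of chromosome 4 were also below 0, and all 30 of chromosome 6 were above 0. A shift in 1 direction along a whole chromosome was thus not particular to chromosomes 16 and 18. It was larger there, with median bins at -0.42 and 0.50, against -0.23 on chromosome 4 and 0.26 on chromosome 6. The number of copies of each chromosome in the lines was not measured, and its part in these values was not tested.

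**Figure D1:**
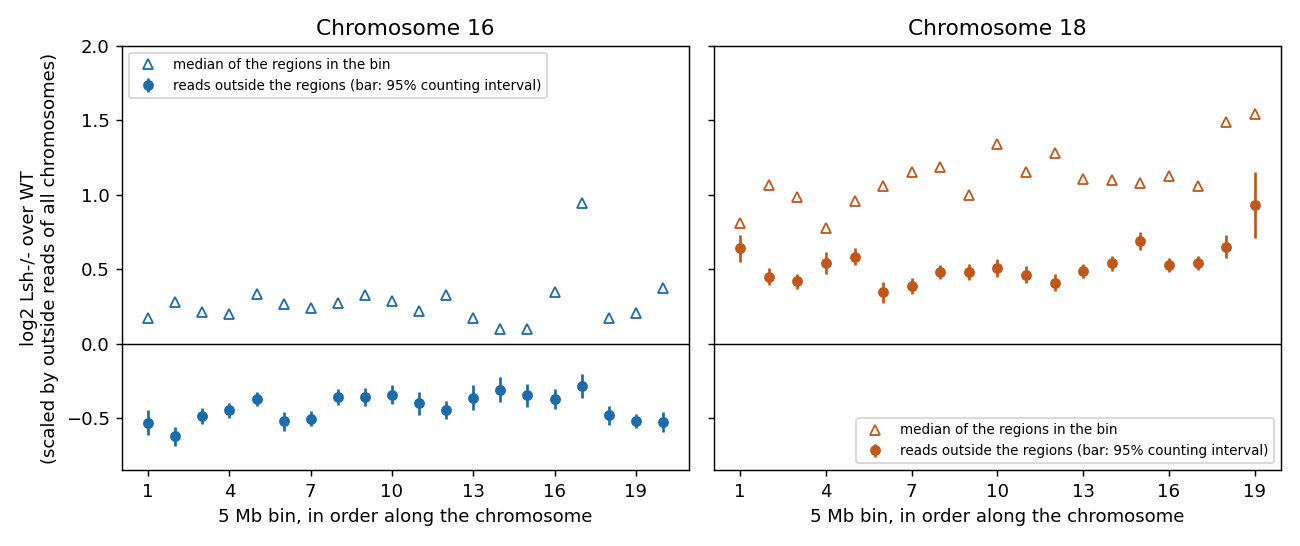
Each point is a 5 Mb bin of chromosome 16 (left, blue) or chromosome 18 (right, orange) in order along the chromosome, with the log2 ratio of Lsh-/- to WT after scaling by the outside reads of all chromosomes. Filled points are reads outside the regions with 95% counting intervals and open triangles are the median of the H3K4me3 regions in the bin. All filled points of chromosome 16 are below 0, all of chromosome 18 are above 0 (its last bin holds 2000 outside reads or fewer), and every triangle lies above the filled point of its bin.

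The H3K4me3 regions followed the reads around them. Members of chromosome 16 held 38113 WT and 43928 Lsh-/- reads together, a ratio of 1.15 before any scaling, and members of chromosome 18 held 27613 and 55723, a ratio of 2.02. The regions of the other 18 chromosomes stood between, at 1.47. Scaled by the total reads of each library, the median region was at log2 0.048 on chromosome 16 and 0.90 on chromosome 18, the lowest and highest of the 20 chromosomes, with the others from 0.18 to 0.66. Scaled by the outside reads of the own chromosome, the median was 0.69 on chromosome 16 and 0.60 on chromosome 18, with the others from 0.58 to 0.69. The distance from the lowest to the highest chromosome shrank from 0.85 to 0.11 on the log2 scale. Across the 20 chromosomes, which share both libraries, the median scaled by total reads followed the outside ratio with Pearson's r of 0.991, and 0.981 without chromosomes 16 and 18. After own-chromosome scaling r was -0.53, and -0.32 without these chromosomes. These are descriptions over the chromosomes and carry no test.

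**Figure D2:**
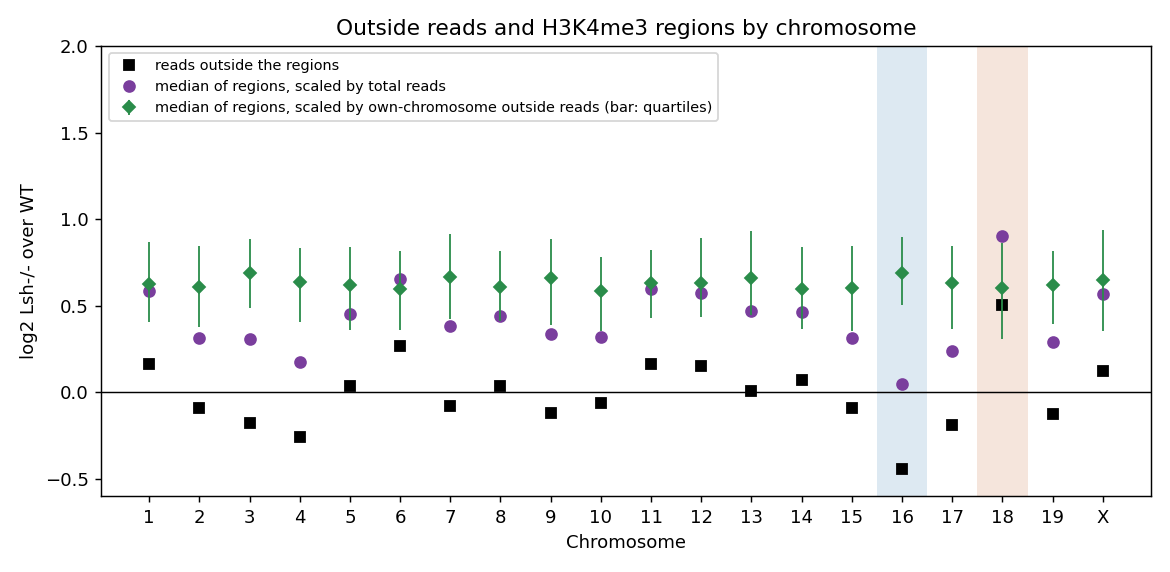
For each of the 20 chromosomes, the log2 ratio of Lsh-/- to WT is shown for reads outside the regions (black squares, scaled over all chromosomes), for the median region scaled by total reads (purple circles) and for the median region scaled by the outside reads of its own chromosome (green diamonds, bars from the first to the third quartile of regions). Shaded columns are chromosomes 16 and 18, where the squares are lowest and highest while the diamonds, at 0.69 and 0.60, lie among those of the other chromosomes.

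With all reads of a chromosome pooled, regions of chromosome 16 stood out most from their surroundings in Lsh-/- compared with WT and those of chromosome 18 least. Read density inside regions over density outside was 59.0 in WT and 95.02 in Lsh-/- on chromosome 16, a 1.61-fold rise that was the highest of the 20. On chromosome 18 it was 51.8 and 75.9, a 1.46-fold rise that was the lowest. The other 18 chromosomes lay from 1.46 to 1.60, so the order at the ends rests on small differences. The outside reads by which these chromosomes were chosen are the denominator of this ratio, and by the median region they ranked 2nd and 17th. Regions of chromosome 18 were also more uneven. The middle 50% of log2 ratios ran from 0.31 to 0.86 on chromosome 18, a span of 0.55 that only 1 other chromosome exceeded, and from 0.50 to 0.90 on chromosome 16, a span of 0.39 that was the narrowest of the 20.

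A region was called higher or lower in Lsh-/- cells when it differed at least 2-fold after own-chromosome scaling, its interval excluded 1, and it held at least 20 reads in both libraries together. On chromosome 16, 47 regions were called higher (12.8%) and 12 lower (3.27%), and on chromosome 18, 54 were called higher (15.7%) and 10 lower (2.92%). The same rule called 14.6% of all 12159 regions higher and 3.12% lower, so the shares on these chromosomes stood near that background. Because the median region was above 0 on every chromosome, the calls were also made against the median region of the other 18 chromosomes, which was 1.54-fold up. Then 10 regions of chromosome 16 were called higher (2.72%) and 19 lower (5.18%), against 3.40% and 5.94% of all regions. On chromosome 18 it was 21 higher and 19 lower, which is 6.12% and 5.54%. Higher calls made up 79.7% of the calls on chromosome 16 with own-chromosome scaling, 34.5% when centred in this way and 29.6% when scaled by total reads. On chromosome 18 they made up 84.4%, 52.5% and 94.96%. Total reads in place of outside reads divide each ratio of chromosome 16 by 1.56 and multiply each of chromosome 18 by 1.23. This gave 8 higher (2.18%) and 19 lower (5.18%) calls on chromosome 16. On chromosome 18 it gave 132 (38.5%) and 7 (2.04%), against 8.99% and 3.96% of all regions. The outside reads of all chromosomes gave 15 (4.09%) and 14 (3.81%) on chromosome 16. On chromosome 18 they gave 215 (62.7%) and 6 (1.75%), against 16.6% and 3.27% of all regions.

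**Figure D3:**
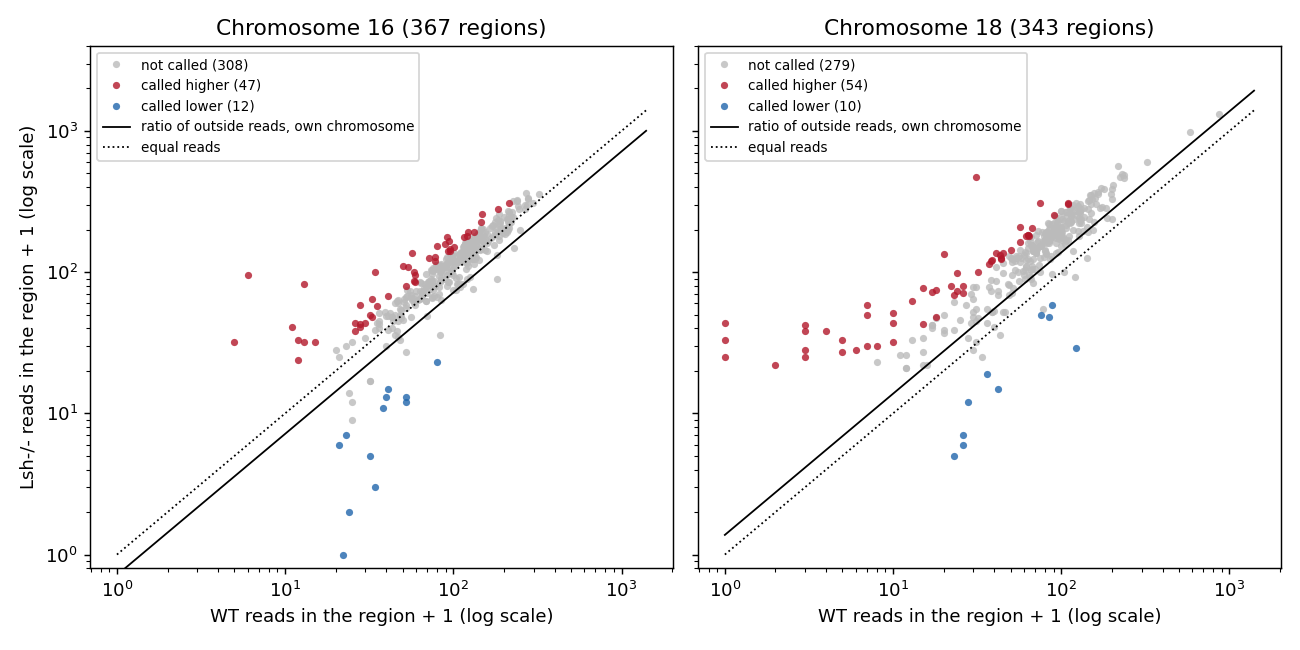
Reads in each of the 367 regions of chromosome 16 (left) and the 343 of chromosome 18 (right), with 1 added, WT on the x axis and Lsh-/- on the y axis, both on log scales. Red points were called higher and blue points lower, the solid line is the ratio of outside reads on that chromosome and the dotted line marks equal reads. The solid line lies below the dotted line on chromosome 16 and above it on chromosome 18, and most regions lie above the solid line on both.

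Which library a region was drawn in also differed between these chromosomes. On chromosome 16, 336 regions were drawn in both libraries, 18 in WT only and 13 in Lsh-/- only. On chromosome 18 it was 280, 7 and 56. Regions drawn in Lsh-/- only were thus 3.54% on chromosome 16 and 16.3% on chromosome 18, the lowest and the highest share of the 20. When the library with more outside reads on a chromosome was thinned to the other before drawing, 8.94% of regions on chromosome 16 and 10.6% on chromosome 18 were drawn in Lsh-/- only, within the 6.99% to 14.5% of the other chromosomes. In each library and chromosome the weakest kept region held 20 or 21 reads and the strongest stretch left out held 19. A region at that limit is drawn or missed by a single read. Among regions drawn in both libraries, 0 of 336 on chromosome 16 and 3 of 280 on chromosome 18 were called lower, against 31 of 9938 elsewhere. The 3 held 83 WT and 47 Lsh-/- reads (chr18:42076601-42077600), 87 and 58 (chr18:33081801-33082800) and 75 and 49 (chr18:63047801-63049000).

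The region of chromosome 16 with the largest gain, chr16:91088201-91089200, held 5 WT and 95 Lsh-/- reads, 26.5-fold more after scaling (11.0 to 83.6). It was poor in CpG, with an observed-to-expected ratio of 0.380, and no promoter of the RefSeq table lay in it. The nearest start site found by reads was that of the predicted gene Gm41492, 211 bp away. Cadm2, which encodes a synaptic cell adhesion molecule, came next by the bound of its interval. Its region at chr16:67538201-67539400 held 12 and 81 reads, 9.43-fold more (5.11 to 18.998). Ncam2, a neural cell adhesion molecule of the immunoglobulin family, held 10 and 40 reads at chr16:81082801-81083600, 5.59-fold more (2.75 to 12.5). Both adhesion genes were drawn as a region in Lsh-/- cells only.

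The noncoding gene A930006K02Rik had 33 WT and 99 Lsh-/- reads at chr16:91353201-91354600, 4.19-fold more (2.80 to 6.42), and was drawn in both libraries. St6gal1, a sialyltransferase, shared the region chr16:23139801-23142000 with the noncoding gene BC106179, and reads rose from 91 to 177 there, 2.72-fold (2.10 to 3.54), a call that was lost with total reads or centring. The other 3 leading gains had no gene tied to them. These were chr16:84656401-84657600 with 56 and 136 reads (3.39-fold), chr16:5046401-5047800 with 49 and 109 (3.11-fold, not called by total reads), and chr16:17729001-17729600 with 4 and 31 (10.8-fold, 3.83 to 42.2). The nearest placed start sites lay 38565, 14630 and 18156 bp away, those of Mrpl39, Sec14l5 and Scarf2.

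Losses on chromosome 16 were few and small in reads, and all 12 were drawn in WT only, as were 326 of the 357 elsewhere. Tmem45a, which encodes a transmembrane protein, had 33 WT and 2 Lsh-/- reads at chr16:56810601-56811400, 11.8-fold fewer after scaling (3.02 to 102). Col8a1, a chain of the short-chain collagen VIII of vessel walls and other matrices, had 31 and 4 reads at chr16:57675601-57676400, 5.55-fold fewer (1.96 to 21.6). They were the only called losses with a gene tied by sequence. A pair of losses stood near Bcl6, a zinc-finger transcriptional repressor: chr16:23898201-23898800 with 21 reads in WT and 0 in Lsh-/-, and chr16:23900001-23900600 with 51 and 11 (3.32-fold fewer). Against a floor of 3 reads for the region, the former was at least 5.01-fold lower, and the limit of its interval was 3.73-fold. They lay 5401 and 3601 bp from the Bcl6 start, whose own region at chr16:23902201-23905200 held 94 and 134 reads, log2 0.99 after scaling. Within a few kilobases the mark was thus lower at both of these regions, which lie on the same side of the start. The region at the start was 1.99-fold higher (1.52 to 2.62) and was not called. Its interval included the 1.54-fold of the median region of the other 18 chromosomes. Centred on those chromosomes, the start region was at 1.29-fold and again not called.

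A loss near a start site was also found at Epha3, an ephrin receptor, where the start region, unlike that of Bcl6, held fewer Lsh-/- than WT reads. The region chr16:63799401-63800000 held 51 and 12 reads, 3.04-fold fewer (1.60 to 6.27), 6377 bp from the Epha3 start, whose region held 31 and 16 reads. For that start the interval ran from 0.368 to 1.36 and included 1, so no difference was detectable there at this depth with own-chromosome scaling. Centred on the other chromosomes, the Epha3 start was called lower, at log2 -1.10. Further losses lay far from any placed start. At chr16:23525201-23526600 the reads were 79 and 22 (2.57-fold fewer), at chr16:34015401-34015800 they were 23 and 1 (16.5-fold fewer, 2.67 to 678), and at chr16:97689801-97691400 they were 37 and 10 (2.65-fold fewer). The distances to the nearest placed starts were 279593, 24041 and 74711 bp. With distinct reads, 5 losses in place of 12 were called on chromosome 16, and those at 63799401 and 97689801 were not among them. Col8a1 (15 and 3 distinct reads) and the losses at 23898201 (10 and 0) and 34015401 (6 and 1) held under 20 distinct reads together. By the rule they could not be called with distinct reads.

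Of the regions called higher on both chromosomes, the one with most Lsh-/- reads lay on chromosome 18. The region chr18:86528201-86531800 was 3600 bp wide and held 30 WT and 470 Lsh-/- reads, 11.4-fold more after scaling (7.86 to 17.0). It was drawn in Lsh-/- only. In 3 regions no WT read was found: chr18:37644201-37644800 with 43 Lsh-/- reads, chr18:37744401-37745200 with 32 and chr18:66712601-66712800 with 24. Against the floor of 3 reads these were at least 10.4-fold, 7.74-fold and 5.81-fold higher, and the lower limits of their intervals were 8.10, 5.94 and 4.37. The table of promoter sequences gave no entry for chromosome 18, so its regions are given by position and their genes were not analysed here.

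The other 4 leading gains of chromosome 18 also had few WT reads. At chr18:70050601-70051600 the libraries held 2 and 41 reads (14.9-fold, 3.86 to 127), at chr18:37806201-37807200 they held 2 and 37 (13.4-fold, 3.46 to 115), and at chr18:36044801-36045600 they held 6 and 58 (7.02-fold, 3.03 to 19.9). The region chr18:89902801-89904200, with 19 and 134 reads (5.12-fold, 3.15 to 8.77), was the only one of the 8 that was CpG-rich. Of the 54 higher calls on chromosome 18, 34 were drawn in Lsh-/- only, compared with 10 of 47 on chromosome 16 and 649 of 1677 on the other 18 chromosomes.

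Among the losses of chromosome 18, chr18:61788401-61791600 stood out by size. It was 3200 bp wide, held 121 WT and 28 Lsh-/- reads, 5.95-fold fewer after scaling (3.92 to 9.33), and had a CpG observed-to-expected ratio of 0.204. Smaller losses were chr18:45684001-45684600 with 22 and 4 reads (7.58-fold fewer), chr18:34015801-34016400 with 25 and 5 (6.89-fold) and chr18:43563001-43563800 with 41 and 14 (4.04-fold). The region chr18:84225801-84226600 fell from 25 to 6 reads (5.74-fold fewer) next to the wide region chr18:84219001-84225200, which held 198 and 390 reads, was at 1.43-fold (1.20 to 1.70) and was not called. The last of the 8 leading losses were chr18:32074201-32074600 with 27 and 11 reads, chr18:36194001-36194600 with 35 and 18, and the region with 83 and 47 reads given above, the only one of them drawn in both libraries and one whose call was lost with total reads.

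**Figure D4:**
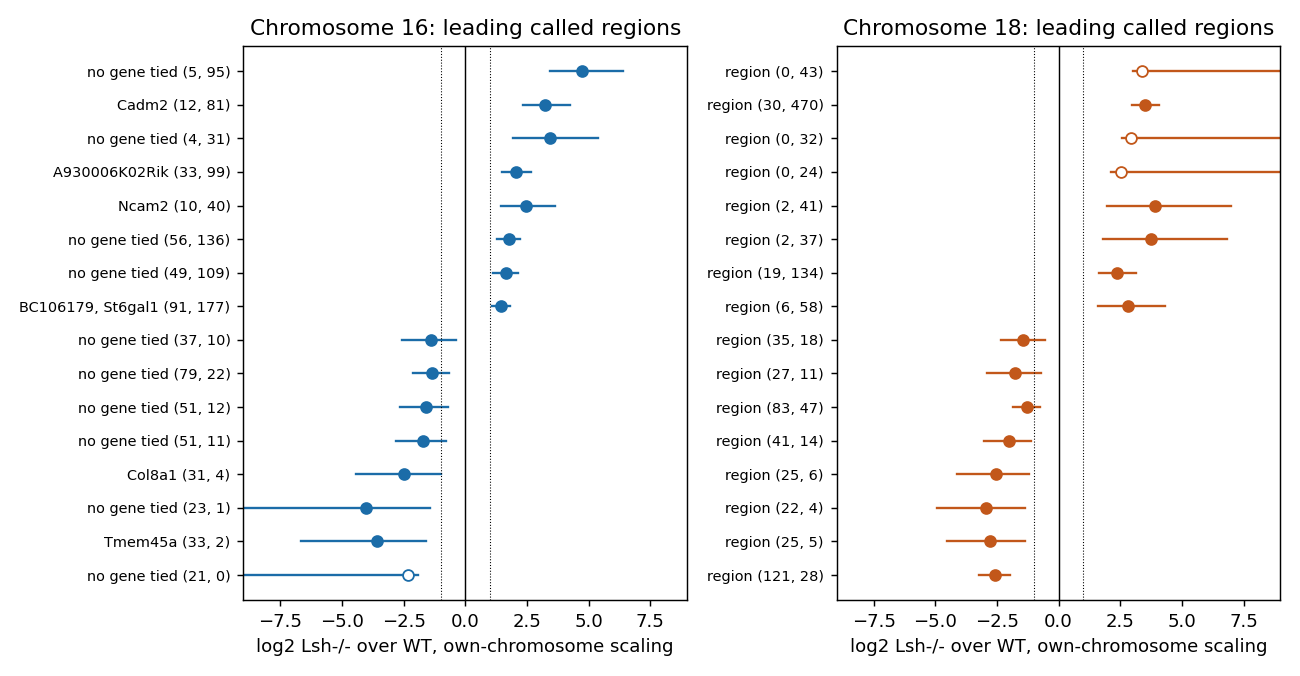
The 8 higher and 8 lower calls of each chromosome that stand farthest from 1 by the nearer bound of their interval, with the log2 ratio of Lsh-/- to WT after own-chromosome scaling (points) and its 95% counting interval (lines, cut at the edge of the plot). Labels give the gene tied to the region where there is one, then the WT and the Lsh-/- reads, open points are ratios against the floor of 3 reads, and dotted lines mark 2-fold. The gains of chromosome 18 reach 470 Lsh-/- reads, and the widest intervals belong to regions with 0 to 2 reads in a library.

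The regions of chromosome 16 with most reads and the widest were at log2 0.54 to 0.92, beside a common rise of 0.63. On chromosome 16 the region of Phldb2, which anchors microtubules at the cell cortex, held most reads, 324 in WT and 354 in Lsh-/- (chr16:45760801-45764200, log2 0.61). Ubald1 held 296 and 308 (log2 0.54), Adamts1, a secreted metalloproteinase of the matrix, held 272 and 296 over 4400 bp (log2 0.60), and Runx1, a transcription factor, held 237 and 321 over 4400 bp (log2 0.92). Gsk3b, a protein kinase of Wnt signalling, and BC031361 shared a region of 5600 bp with 271 and 362 reads (log2 0.90). Centred on the other chromosomes, Ubald1, Phldb2 and Adamts1 were at -0.088, -0.017 and -0.023, that is, near the common rise. The intervals of Runx1 (1.59 to 2.25-fold) and Gsk3b (1.59 to 2.19-fold) lay above the 1.54-fold of the other 18 chromosomes. Both intervals included 1.61-fold, the median region of chromosome 16 itself. The remaining strong regions of chromosome 16, chr16:29983201-29988400 and chr16:45012801-45018400, had no gene tied and log2 ratios of 0.77 and 0.73. None of these 7 was called.

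Chromosome 18 held wider ones, and some lay below the common rise. The widest member of all, chr18:11048001-11059800, spanned 11800 bp and held 867 WT and 1315 Lsh-/- reads. After own-chromosome scaling it was 1.10-fold higher (1.01 to 1.20), and centred on the other chromosomes it was at log2 -0.49. The 8400 bp region chr18:75491801-75500200 held 578 and 981 reads and was 1.23-fold higher (1.11 to 1.37), log2 -0.33 when centred. In contrast, the 8200 bp region chr18:83043601-83051800 held 215 and 562 reads and was 1.90-fold higher (1.62 to 2.23). The intervals of the last and the first do not overlap, so wide regions of the same chromosome differed by more than counting error. The regions chr18:44784401-44788400 with 321 and 606 reads, chr18:35056401-35059800 with 229 and 492 and chr18:34985201-34990000 with 98 and 268 were at log2 0.45, 0.64 and 0.99. Over 4 kb, 0 of 6 members of chromosome 16 and 0 of 7 of chromosome 18 were called in either direction, against 5.92% higher and 2.79% lower of the 287 such regions elsewhere. The medians were 0.77 and 0.59 against 0.57 elsewhere.

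Called gains were partly grouped along the chromosomes. The rule of at least 3 calls in the same direction, each starting within 250 kb of the next, was chosen after the values were seen. The longest group lay on chromosome 18 from 37644201 to 38338200, where 8 of 15 members were called higher. All 8 were picked by their call, and 7 of them were drawn in Lsh-/- only, so their joint ratio is a description. They held 61 WT and 346 Lsh-/- reads together, 4.12-fold more (3.13 to 5.50), with 0 to 43 WT reads and 21 to 125 Lsh-/- reads each. The other 7 members of that stretch were at log2 -0.57 to 0.79, so the gain was uneven within it, and all 15 together were 1.68-fold higher. On chromosome 16 all 4 members from 84503801 to 84657600 were called higher, with 195 and 357 reads together, 2.56-fold more (2.14 to 3.06). These 4 were also picked by their call, so this joint ratio is a description. Centred on the other chromosomes, 1 of the 4 was called. The region tied to Mrpl39, a mitochondrial ribosomal protein, was among the 4, with 94 and 141 reads. In the 5 Mb bin that holds this group and Ncam2, 5 of 6 regions were called higher and the median was 1.39, the highest bin of chromosome 16, while its outside reads were at -0.29. A further group of chromosome 16, from 91353201 to 91619600, had 3 of 8 members called, with 244 and 436 reads. These 3 were picked by their call too. Centred on the other chromosomes, 1 member of this stretch and 5 members of the chromosome 18 stretch were called.

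Genes were tied to 257 of the 367 regions of chromosome 16 by reads that match the promoter sequence, 304 genes in all of 903 in the table. Of the 903, 518 were placed by a read, and whether the rest lay in a region is unknown. The 257 regions were at a median of log2 0.71 and the 110 without a gene at 0.68. Of the former 28 were called higher and 2 lower, and of the latter 19 and 10. Regions without a gene were narrower (median 1200 against 1600 bp) and weaker (59.5 against 108 WT reads). By gene, 34 of 304 lay in a region called higher and 2 in one called lower, and the median over the 304 was 0.70.

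Orthologues of genes on human chromosome 21, many of which lie on mouse chromosome 16, formed the largest list, with 27 of 35 in a region. Their median was 0.72, 2 were called higher and 0 lower. Centred on the other chromosomes, 0 were called higher and 1 lower (Hunk, a protein kinase, with 181 and 88 reads, log2 -0.56 before centring). Hlcs, which attaches biotin to carboxylases, rose from 57 to 100 reads (2.45-fold, 1.753 to 3.455), and Rcan1, an inhibitor of calcineurin, from 25 to 43 (2.40-fold, 1.43 to 4.10). App, the amyloid precursor, held 214 and 206 reads (log2 0.43), and the divergent genes Son and Gart, a splicing cofactor and a purine synthesis enzyme, shared a region with 133 and 179 (log2 0.91). All 10 housekeeping genes lay in a region, with a median of 0.78 and log2 ratios from 0.54 to 1.01. Of these, Eif4a2, an RNA helicase of translation initiation, was just past 2-fold with 212 and 306 reads (2.02-fold, 1.69 to 2.41), and Ranbp1, Psmd2 and Cct8 were at 0.80, 0.77 and 0.72. Eif4a2 was not called when centred.

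Of the neuronal and adhesion genes 4 of 9 lay in a region, at log2 ratios from -0.47 to 2.48. Ncam2 was called as described. Robo1, a receptor for Slit guidance cues, rose from 122 to 193 reads (2.21-fold, 1.752 to 2.795, not called when centred), while its paralogue Robo2 held 79 and 66 (1.17-fold, 0.829 to 1.64) and Epha3 held 31 and 16. Robo1 and Robo2 thus had counting intervals that do not overlap. Reads are not independent molecules, so such intervals can be too narrow, and the difference was not tested. Among mesenchymal and matrix genes 3 of 5 lay in a region: Col8a1, called lower, Adamts1, and Igf2bp2, an RNA-binding protein, with 208 and 193 reads (log2 0.37). Transcription factors (5 of 8 in a region, median 0.84) and immune and interferon genes (5 of 9, with 5 placed, median 0.74) had no called member. Runx1, Bach1 and Bcl6 were at 0.92, 0.84 and 0.99, whereas Ets2 was at 0.36 with 134 and 123 reads. The interferon receptor chains Ifnar2 and Ifngr2 held 213 and 255 reads (log2 0.74) and 96 and 100 reads (0.54). Cd47, an integrin-associated membrane protein, held 210 and 269 (0.84), and Socs1, an inhibitor of cytokine signalling, held 173 and 154 (0.31). None of the 4 epithelial junction genes of the table was found in a region. Only 1 of the 4 was placed by a read, so the others were not assessed.

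The share of higher calls was given for CpG-rich and CpG-poor regions, without a test of the difference. Regions were counted as CpG-rich when their reads had over 50% GC and an observed-to-expected CpG ratio over 0.6, which held for 274 of 367 on chromosome 16 (74.7%) and 243 of 343 on chromosome 18 (70.8%), against 66.2% elsewhere. Among CpG-rich regions 10.6% were called higher on chromosome 16 (exact binomial interval 7.20% to 14.8%) and 12.3% on chromosome 18 (8.49% to 17.2%). Among the CpG-poor regions of chromosome 16 it was 19.4% (11.9% to 28.9%) and, with 24 of 100 regions on chromosome 18, 16.02% to 33.6% by the interval. Elsewhere the shares were 10.52% and 22.7%. The intervals elsewhere ran from 9.84% to 11.23% and from 21.42% to 24.09%. Regions of the same 2 libraries are not replicates, so these intervals cannot decide whether CpG-rich and CpG-poor regions differ. CpG-poor regions also held fewer reads. Their median in WT was 79 against 101 on chromosome 16, 55 against 79 on chromosome 18 and 69 against 92 elsewhere. The part of this in the shares was not tested. Among regions drawn in both libraries the shares of CpG-rich and CpG-poor regions were 9.58% and 16% on chromosome 16. They were 6.54% and 9.09% on chromosome 18, and 8.33% and 15.05% elsewhere. The median log2 ratios differed less, at 0.68 and 0.74 for CpG-rich and CpG-poor regions of chromosome 16 and 0.60 and 0.68 on chromosome 18. By width, up to 1 kb, 18.6% of regions on chromosome 16 and 26.8% on chromosome 18 were called higher and 9.80% and 8.25% lower, against 22.5% and 6.81% elsewhere. From over 2 kb to 4 kb it was 11.4% and 9.33% higher and 0% and 1.33% lower, against 9.88% and 1.06% elsewhere. Narrow regions held fewer reads, with medians of 46 and 29 in WT, so their ratios have wider counting intervals.

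Around start sites the mark had the shape usual for MNase-cut chromatin, and the gain was larger at its edges than at its crest. At 328 placed start sites of chromosome 16 inside a region, distinct reads peaked 100 to 200 bp downstream of the start in both libraries, at 6.27 reads per start per 100 bp in WT and 9.39 in Lsh-/- after scaling. Both dipped just upstream of the start. From 0 to 300 bp downstream the Lsh-/- level was 1.49-fold that of WT (1.43 to 1.55). From 300 to 1000 bp downstream it was 1.62-fold (1.57 to 1.67) and from 1000 to 2000 bp it was 1.80-fold (1.70 to 1.90). Upstream it was 1.60-fold up to 300 bp, 1.71-fold from 300 to 1000 bp and 1.76-fold from 1000 to 2000 bp. Counting each position once limits how high a crest can rise, and the part of this in the lower ratio there was not tested.

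**Figure D5:**
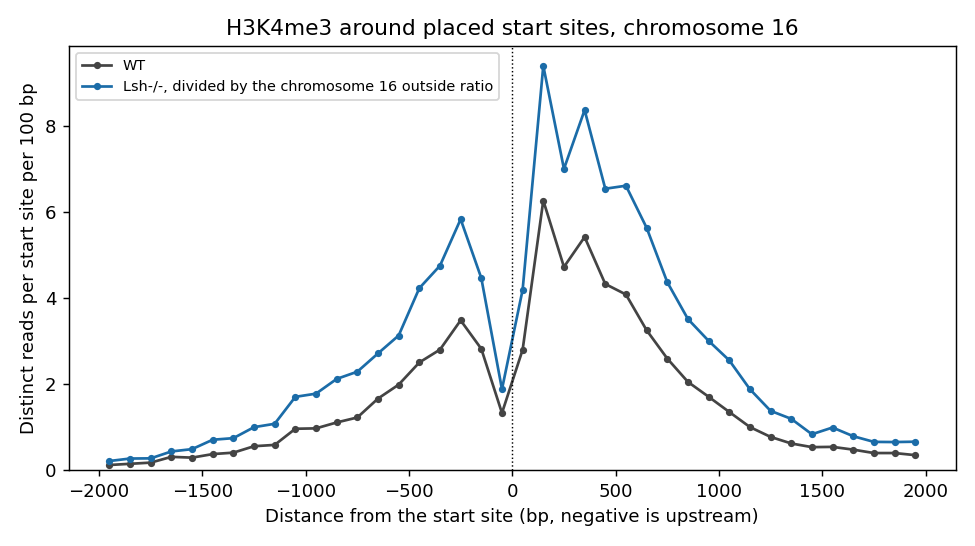
Distinct reads per start site in 100 bp bins by distance from 328 start sites of chromosome 16, for WT (grey) and for Lsh-/- divided by the ratio of outside reads on chromosome 16 (blue). Both curves dip at the start and peak 100 to 200 bp downstream, at 6.27 and 9.39 reads, and the blue curve lies above the grey one at every distance shown.

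The window lists held more reads than the distinct reads of the deposited read lists, and these further reads, which come from the same libraries, were scaled and compared on their own. They were part of the counts that gave the calls, so the choice of regions fixes much of the outcome: elsewhere, too, all 1395 of 1395 comparable higher calls were higher again. The counts are a description and no support for the calls. Of the 47 higher calls of chromosome 16, 41 had at least 20 further reads, and all 41 were higher again, 36 of them at least 2-fold. Of the 54 of chromosome 18, 43 could be compared, all 43 were higher and 39 at least 2-fold. Among the lower calls 3 of 12 and 5 of 10 could be compared and all were lower again, with 3 and 3 at least 2-fold. The further reads at Cadm2 were 6 and 36, at Tmem45a 14 and 0, and at the strongest gain of chromosome 18 they were 12 and 231. Across regions with enough reads the log2 ratios of distinct and further reads correlated with Pearson's r of 0.746 on chromosome 16 (347 regions) and 0.798 on chromosome 18 (315 regions), given as a description since both kinds of read share their library.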

How the data were processed

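H3K4me3 chromatin had been cut with MNase, precipitated and sequenced by the submitters from 1 WT and 1 Lsh-/- fibroblast line. The deposited window lists give the count of reads in each 200 bp window, per the file headers and values, and the deposited read lists give 25-base reads with position, strand and, judged from its values, an alignment score, on which no read was filtered. Both are in build mm8, per the submitters' processing notes, and which aligner made them was not given in the sources used here. Reads placed 100 bp towards the fragment never exceeded a window's count, so the windows are taken to be of shifted reads.

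Regions were drawn as stated in the report and numbered from 1, with Python 3.11.15 and its packages pandas 2.3.3, numpy 2.4.6, matplotlib 3.10.9 and scipy 1.17.1. Ratios were scaled by the reads outside regions on the own chromosome, with exact conditional (Clopper-Pearson) 95% intervals. The call rule was tested on simulated data. Alternatives were the scaling (total reads, all outside reads, 5 Mb bins, centring, 5 kb flanks), the kind of read, window, gap and region minimums, and thinning. Centring of single regions was added after the data had been seen. RefSeq promoter sequences (GRCm38.p6) were placed by at least 1 read of the same chromosome that matched exactly. A gene was tied to a region of chromosome 16 when its placed promoter overlapped the region. The named regions are the 8 higher and 8 lower calls per chromosome with the interval bound farthest from 1, and the 5 with most reads and the 5 widest. From each gene list up to 4 genes with most reads and up to 4 with the interval bound farthest from 1 are named. Other genes and regions named were chosen after their values were seen. The regions, gene lists and rules were chosen with earlier results of these data known. A list of methyl-CpG and CXXC proteins had no gene of chromosome 16 in the table.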

Additional observations from a re-analysis of the deposited data

How the results depend on the processing

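No paired analysis was possible because each group is 1 library. The counts called and the medians depend on the scaling. With total reads, chromosome 16 had 8 higher and 19 lower calls and a median of 0.048, and chromosome 18 had 132 higher calls and a median of 0.90. With the outside reads of all chromosomes, chromosome 16 had 15 higher calls and a median of 0.25 (log2), and chromosome 18 had 215 higher and 6 lower calls and a median of 1.11. Centred on the other chromosomes, it was 10 and 19 calls with a median of 0.064 on chromosome 16, and 21 and 19 with -0.026 on chromosome 18, where the sign changed. With distinct reads the lower calls of chromosome 16 numbered 5 and the median of chromosome 18 was 0.52. With all reads of the read lists, 86 higher and 7 lower calls were made on chromosome 16, and 88 higher calls with a median of 0.73 on chromosome 18. With further reads alone it was 85 and 3 with a median of 0.75 on chromosome 16, and 3 lower calls with 0.73 on chromosome 18. A minimum of 40 reads left 4 and 5 lower calls. Regions drawn in both libraries gave 0 lower calls on chromosome 16, and 20 higher and 3 lower on chromosome 18. After thinning, 8 and 32 regions were drawn in WT only and in Lsh-/- only on chromosome 16, and 12 and 34 on chromosome 18. The 5 Mb bins, 5 kb flanks, window minimum of 8 and gap of 400 bp left the counts within 1.5 times. Among the named regions, the sign changed at Ubald1 (-0.10 by total reads, -0.088 centred), Phldb2 (-0.033 and -0.017), Adamts1 (-0.039 and -0.023) and, when centred, at the regions of chromosome 18 starting at 11048001 (-0.49), 44784401 (-0.17), 75491801 (-0.33) and 84219001 (-0.11). Of the single regions tried, 3 lost and 2 gained a call by total reads, 1 lost it when centred, 2 lost it with distinct reads, 1 lost and 3 gained it with further reads, and 1 gained it with 5 Mb bins. The cause of these changes was not tested. Ratios of regions with under 10 reads in a library are limited by depth.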
